A study of Mus musculus with 14 samples.

Results

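The genes described here are 10 transcription factors of the heart and of cardiac mesoderm, Gata4, Nkx2-5, Tbx5, Tbx20, Hand2, Isl1, Mef2c, Wt1, Tcf21 and Hopx, out of 21887 protein-coding genes on the assembled mouse chromosomes. They were taken by name, and a peak was assigned to a gene when it overlapped the annotated gene or the 5 kb on either side, here called its window, and the nearest peak was followed out to 100 kb (gene boundaries from RefSeq, build GRCm38). The peaks come from chromatin immunoprecipitation with sequencing (ChIP-seq) of BMI1 and of H2AK119ub in Sca1+CD45- cells, which were enriched magnetically from the hearts of C57BL/6 mice 6 to 8 weeks old. Sca1 is a surface antigen of stromal and progenitor-type cells, and CD45 marks leukocytes. In the Damage group each mouse had been given paraquat, a herbicide that generates superoxide, once at 20 mg/kg into the peritoneum, and in the Homeostasis group the vehicle PBS alone. No genetic modification is named for any group. The labels describe growth in medium at 3% oxygen without saying whether the immunoprecipitated cells had been grown. They do not name separate animals for the replicates, so p-values measure the spread between these libraries, which may be technical. With 2 treatments and 2 antibodies there are 4 groups, of 3 libraries each, and the 2 Input libraries, labelled as not treated, were not analysed here.

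BMI1 belongs to the Polycomb repressive complex PRC1, in which its RING-type partner attaches a single ubiquitin to histone H2A and so makes H2AK119ub. Polycomb complexes are best known for sitting on CpG-rich promoters of developmental transcription factor genes and keeping them silent in cells that do not use them. GATA4, NKX2-5, TBX5, TBX20, HAND2, ISL1 and MEF2C build the cardiac muscle programme in the embryo, WT1 and TCF21 mark the epicardium and the fibroblast lineage that arises from it, and HOPX is a homeodomain protein that does not bind DNA itself.

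In these lists most of the 10 genes had no peak. At homeostasis a peak was assigned to Mef2c, Wt1 and Tcf21, and to none of Gata4, Nkx2-5, Tbx5, Tbx20, Hand2, Isl1 and Hopx. After paraquat no peak was assigned to any of the 10. Mef2c carried a site found with both antibodies in 5 of the 6 Homeostasis lists, and Wt1 a site found in 3 of them. The start sites of the genes, where they are listed, held no peak in any library. Peaks in at least 1 of the 6 Homeostasis lists were assigned to 3 of 10 of these genes and to 19.3% of all protein-coding genes.

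The depth of a library is unknown, because the lists give positions and no read counts. Homeostasis lists held 2000 to 13487 peaks and Damage lists 19 to 68. The median peak width was 101 bp in every list. H2AK119ub had both the shortest Homeostasis list, replicate 1, and the longest, replicate 2, and much of what follows moves with that difference. Peak lists carry no expression, so the identity of the cells could not be checked from marker genes. Of 16 markers of cardiac cell types looked up, 5 had a peak in some Homeostasis list, and Ly6a, which encodes Sca1, and Ptprc, which encodes CD45, had none.

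Start sites come first, since they are where Polycomb proteins are usually sought. The RefSeq promoter table (GRCm38.p6) matched 7 of the 10 genes, with 10 start sites between them, and Gata4, Tbx5 and Wt1 had no entry. No window from 250 bases before to 50 bases after these start sites held a peak in any of the 12 lists. Among the 17492 protein-coding genes in that table, 17 (0.0972%) had a peak in such a window in any list, 0.04% in 2 or more of 3 Homeostasis BMI1 libraries and 0.0343% for H2AK119ub, so the 0 of 7 here is what nearly every gene shows. The 250 bases before 4 of the start sites are shown, those of Nkx2-5, Tcf21 and the Mef2c start nearest to a peak, and that of Isl1, the richest of the 10 in the dinucleotide CG. Each is written 5′ to 3′ on the strand of the gene, with every CG (the same on both strands) in capitals.
Nkx2-5, chr17:26841566-26841815, minus strand: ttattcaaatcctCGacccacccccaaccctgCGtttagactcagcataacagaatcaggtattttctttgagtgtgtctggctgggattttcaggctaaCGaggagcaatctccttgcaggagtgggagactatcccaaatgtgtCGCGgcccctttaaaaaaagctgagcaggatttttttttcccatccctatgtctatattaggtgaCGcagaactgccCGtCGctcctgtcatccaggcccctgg
Tcf21, chr10:22820144-22820393, minus strand: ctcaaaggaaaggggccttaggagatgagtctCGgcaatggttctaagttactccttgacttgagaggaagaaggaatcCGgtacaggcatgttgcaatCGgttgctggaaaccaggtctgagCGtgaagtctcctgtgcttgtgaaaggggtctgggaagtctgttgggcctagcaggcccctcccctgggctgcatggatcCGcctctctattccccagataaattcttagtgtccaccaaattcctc
Mef2c, chr13:83573357-83573606, plus strand: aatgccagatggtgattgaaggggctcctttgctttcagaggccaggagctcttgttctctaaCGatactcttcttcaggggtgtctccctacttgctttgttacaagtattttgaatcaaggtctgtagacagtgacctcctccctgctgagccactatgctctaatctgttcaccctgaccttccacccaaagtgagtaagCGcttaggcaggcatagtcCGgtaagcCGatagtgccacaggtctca
Isl1, chr13:116309689-116309938, minus strand: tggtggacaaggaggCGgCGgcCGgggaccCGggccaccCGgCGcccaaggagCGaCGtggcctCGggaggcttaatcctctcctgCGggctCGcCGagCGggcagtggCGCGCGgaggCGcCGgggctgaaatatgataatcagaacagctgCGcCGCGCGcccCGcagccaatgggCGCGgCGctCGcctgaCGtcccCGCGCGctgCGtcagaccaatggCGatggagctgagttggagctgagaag
The Isl1 window holds 33 CG, more than 94.9% of the 21263 windows of protein-coding genes, whose median is 10 and of which 93.4% hold at least 1. The Nkx2-5 window holds 8, the Tcf21 window 5 and the Mef2c window 4, below that median. Of the windows not printed, that of Tbx20 holds 22 CG, that of Hand2 15 and those of Hopx 18 and 8, and the other Mef2c starts hold 1 and 6. The nearest Homeostasis peak lay 11.2 kb from the Nkx2-5 window, 5.92 kb from that of Tcf21, 19.8 kb from that of Mef2c and 37.2 kb from that of Isl1. For the other windows it lay 43.4 and 63.0 kb from the remaining Mef2c starts, 72.9 kb from that of Tbx20, 109 kb from that of Hand2 and 128 and 148 kb from those of Hopx. The absence of a peak says only that none was listed in these windows.

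**Figure D1:**
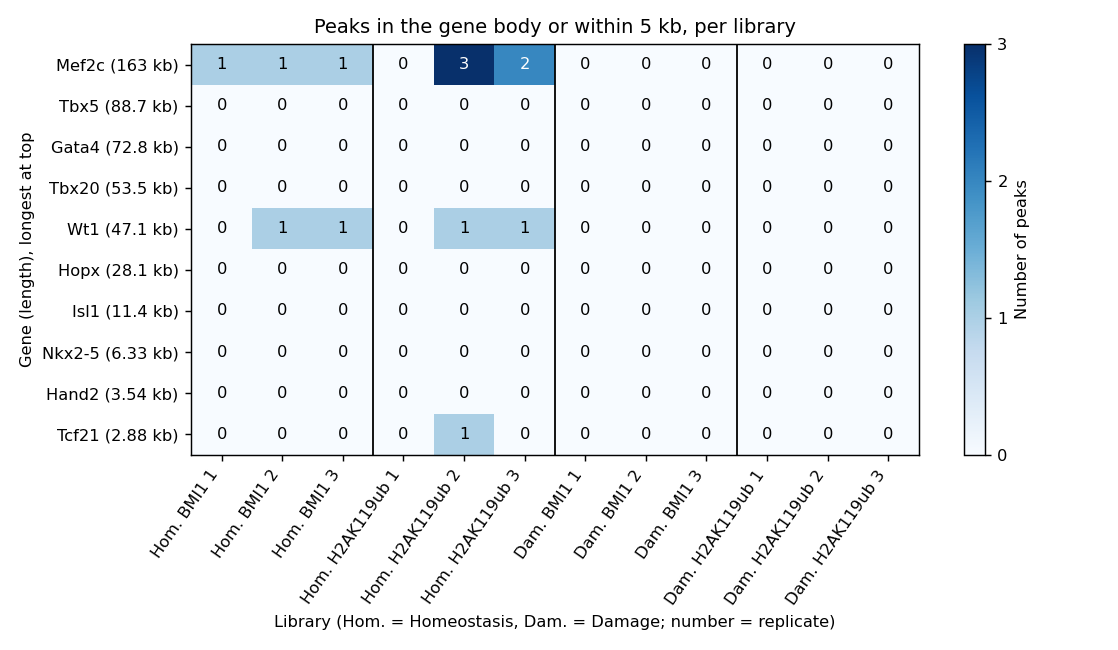
Number of peaks in the window (gene and 5 kb on either side) for each of the 10 genes (rows, longest gene at the top) in each of the 12 libraries (columns, Homeostasis at the left and Damage at the right). Mef2c, Wt1 and Tcf21 have peaks, all in Homeostasis libraries, and none of the 6 Damage libraries has a peak at any of the genes.

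Mef2c encodes a MADS-box factor that drives muscle genes in heart, skeletal and smooth muscle. It is the longest of the 10 genes (chromosome 13, 83504017 to 83667079, 163 kb). The 3 Homeostasis BMI1 libraries each had 1 peak in it, and the H2AK119ub libraries had 0, 3 and 2 in the order of their replicate numbers. The mean was 1.0 ± 0.0 peaks for BMI1 (SD, n = 3) and 1.67 ± 1.53 for H2AK119ub (n = 3). The antibodies overlapped, and the exact two-sided permutation test over the 6 libraries gave p = 0.7, where 3 against 3 cannot go below 0.1. All 3 BMI1 peaks and 1 peak of each of H2AK119ub replicates 2 and 3 fell on 1 site (83593375 to 83593508), with centres no more than 33 bp apart. It lies inside Mef2c, 19.8 kb beyond the nearest of its 3 listed start sites, and also inside the long non-coding RNA gene Gm52043, which the promoter table places on the opposite strand. ChIP peaks have no strand and do not tell these genes apart.

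Further sites in Mef2c came from H2AK119ub alone. One lay 80.6 kb beyond the nearest start (83654160 to 83654261) in replicates 2 and 3, with centres 1 bp apart, and overlaps another long non-coding RNA gene, Gm52044. The other was a single peak of replicate 2 (83603800 to 83603900). Outside the gene, a site 43.7 kb on the side of lower coordinates, which is before the start, was in BMI1 replicate 2 and H2AK119ub replicates 2 and 3. A peak 91.3 kb past the other end was in H2AK119ub replicate 2 alone. H2AK119ub replicate 1, the shortest list, had no peak within 100 kb of Mef2c, and its nearest was 2590 kb away.

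Wt1 encodes the zinc-finger factor of the epicardium (chromosome 2, 105126529 to 105173614, 47.1 kb). BMI1 replicates 2 and 3 and H2AK119ub replicates 2 and 3 had 1 peak each, and replicate 1 of either antibody had none. The mean was 0.667 ± 0.577 peaks for both antibodies (SD, n = 3 each), and the exact permutation test of their difference gave p = 1.0. Both BMI1 peaks and the peak of H2AK119ub replicate 3 lay at 1 site (105162713 to 105162815), with centres within 2 bp. The peak of H2AK119ub replicate 2 lay beside it without overlap (105162892 to 105162992). No other site was found within 100 kb of Wt1. The BMI1 replicate 1 list had its nearest peak 114 kb away, inside the gene Them7, and H2AK119ub replicate 1 had it 866 kb away.

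Tcf21 encodes a basic helix-loop-helix factor of cardiac fibroblast precursors, and at 2.88 kb it is the shortest of the 10 genes (chromosome 10, 22817263 to 22820143). Of the 12 libraries, only Homeostasis H2AK119ub replicate 2 had a peak in its window, 3.04 kb past the end of the gene and inside the long non-coding RNA gene Gm10824 (22814121 to 22814221). A more recurrent site lay 49.4 kb past the same end (22767665 to 22767818). It was found in BMI1 replicates 2 and 3 and H2AK119ub replicates 2 and 3, its centres spread over 53 bp, and Tbpl1, 35.0 kb from it, is closer than Tcf21. BMI1 replicate 1 had a peak of its own 43.5 kb before the start.

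**Figure D2:**
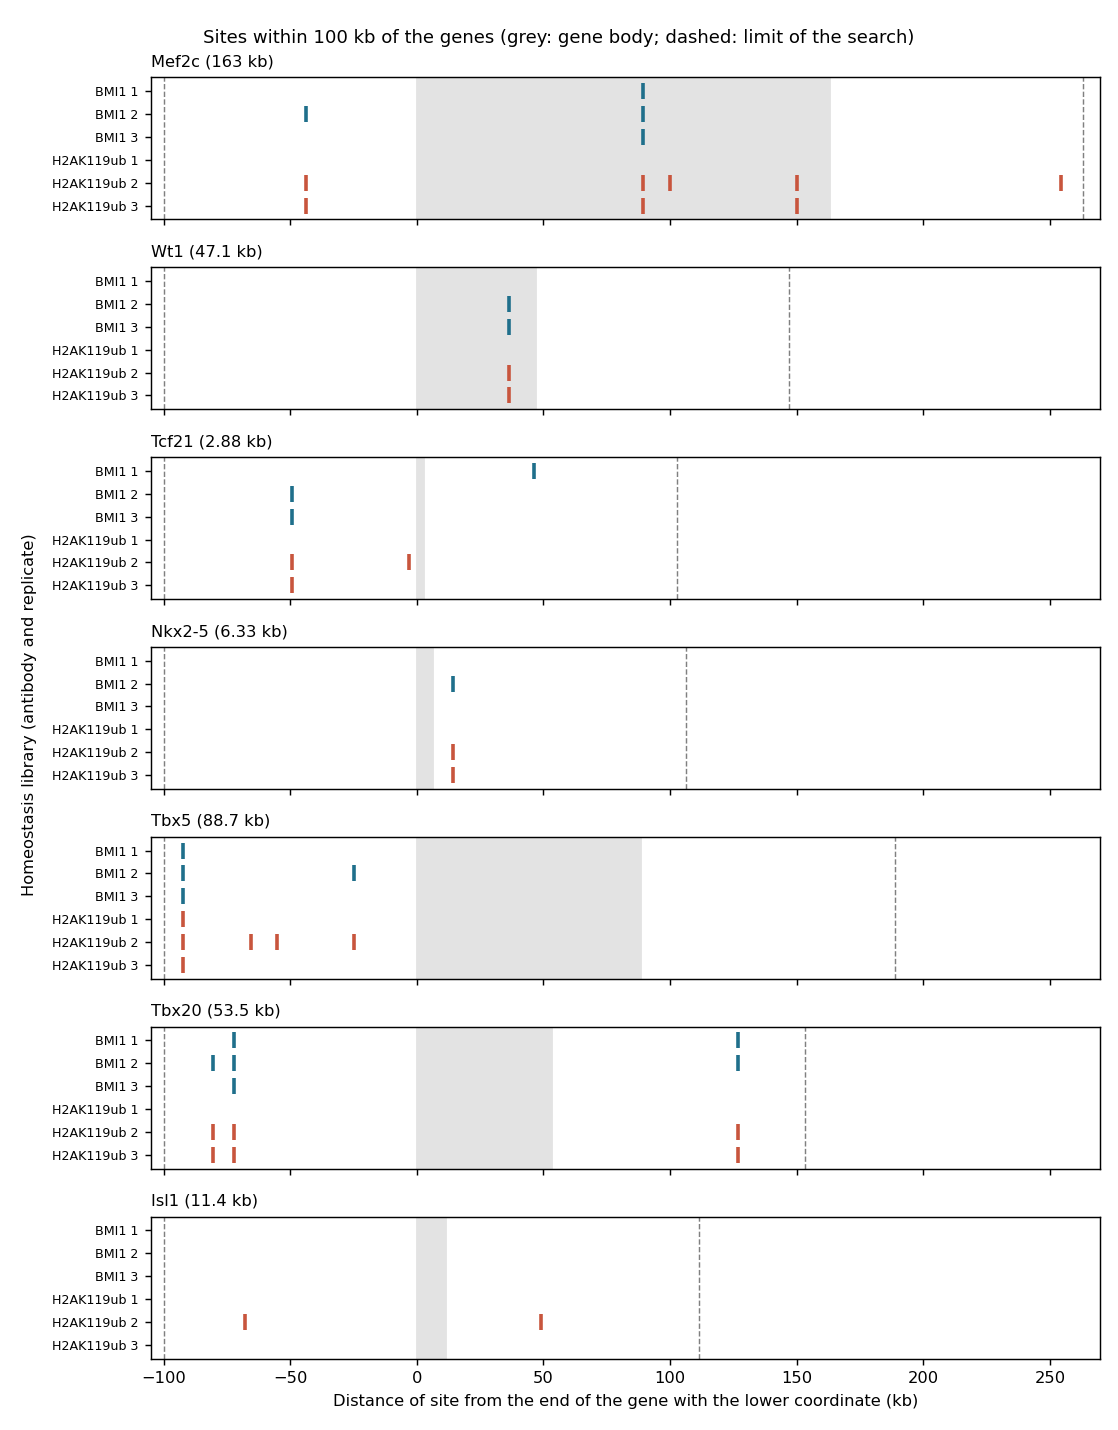
Sites within 100 kb of 7 genes, each panel showing the distance in kb from the end of the gene with the lower coordinate and 1 row for each Homeostasis library (blue BMI1, red H2AK119ub; grey, gene body; dashed, search limit). Marks of both antibodies line up inside Mef2c and Wt1 and outside Nkx2-5, Tbx5, Tbx20 and Tcf21, the Tbx5 site at 92.2 kb is in all 6 lists, and Isl1 has marks of H2AK119ub replicate 2 alone.

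The homeodomain genes had no peak in their windows. Nkx2-5, an early factor of the cardiac lineage (chromosome 17, 26838664 to 26844988), was the closest to having one. A site 7.98 kb from the gene, just outside the 5 kb limit that Tcf21 met at 3.04 kb, was in BMI1 replicate 2 and H2AK119ub replicates 2 and 3 (26852965 to 26853095, centres within 30 bp). It lies 11.5 kb before the listed start and inside the long non-coding RNA gene LOC115488773. The other 3 Homeostasis lists had nothing nearer than 623 kb. Isl1, a factor of second heart field progenitors (chromosome 13, 116298270 to 116309688), had 2 single peaks within 100 kb, both from H2AK119ub replicate 2, at 37.5 kb before the start and 67.9 kb past the end. A site 105 kb past the end, just outside the search limit, was in BMI1 replicates 1 and 3 and H2AK119ub replicate 1, which listed the identical interval (116192893 to 116192993). Another at 173 kb was in all 6 Homeostasis lists. Hopx (chromosome 5, 77086986 to 77115123) had no peak within 100 kb, and its nearest was a site at 128 kb in all 3 BMI1 libraries and H2AK119ub replicate 2.

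The T-box genes had recurrent sites at a distance. Tbx5, which patterns the atria and the forelimb and is mutated in Holt-Oram syndrome (chromosome 5, 119796514 to 119885220, 88.7 kb), had none in its window. A site 92.2 kb on its side of lower coordinates was present in all 6 Homeostasis lists (119704223 to 119704358, centres within 35 bp). That site is nearer to another T-box gene, Tbx3, a factor of the conduction system, at 19.5 kb. Between it and Tbx5, a site 24.8 kb from Tbx5 was in BMI1 replicate 2 and H2AK119ub replicate 2, and 2 more peaks were in H2AK119ub replicate 2 alone. A site of all 6 Homeostasis lists within 100 kb was a feature of 1 of the 10 genes and of 10.2% of protein-coding genes. Tbx20, needed for chamber growth (chromosome 9, 24720812 to 24774303), had 4 sites within 100 kb, of which 3 lay inside the neighbouring gene Dpy19l2. The nearest of these, at 72.1 kb, was in BMI1 replicates 2 and 3 and H2AK119ub replicates 2 and 3, and BMI1 replicate 1 had a separate peak beside it at 72.2 kb. On the other side, 73.2 kb before the listed start, a site was in BMI1 replicates 1 and 2 and H2AK119ub replicates 2 and 3 (24847458 to 24847564).

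Gata4, the zinc-finger factor that acts with NKX2-5 and TBX5 (chromosome 14, 63198914 to 63271712, 72.8 kb), and Hand2, a basic helix-loop-helix factor of the right ventricle (chromosome 8, 57320983 to 57324517, 3.54 kb), had no peak within 100 kb in any of the 12 lists. Every Homeostasis list had its nearest peak to Gata4 at 124 kb, inside Blk, a kinase gene of B cells. Of these, 5 fell on 1 site (63395879 to 63396004) and the peak of BMI1 replicate 3 lay just beside it. For Hand2 the nearest peak was at 105 kb in H2AK119ub replicate 2 and between 214 and 1000 kb in the others. The 10 genes thus ranged from a peak inside the gene in 5 and 4 of the 6 Homeostasis lists, at Mef2c and Wt1, to none nearer than 124 kb, at Gata4 and Hopx.

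**Figure D3:**
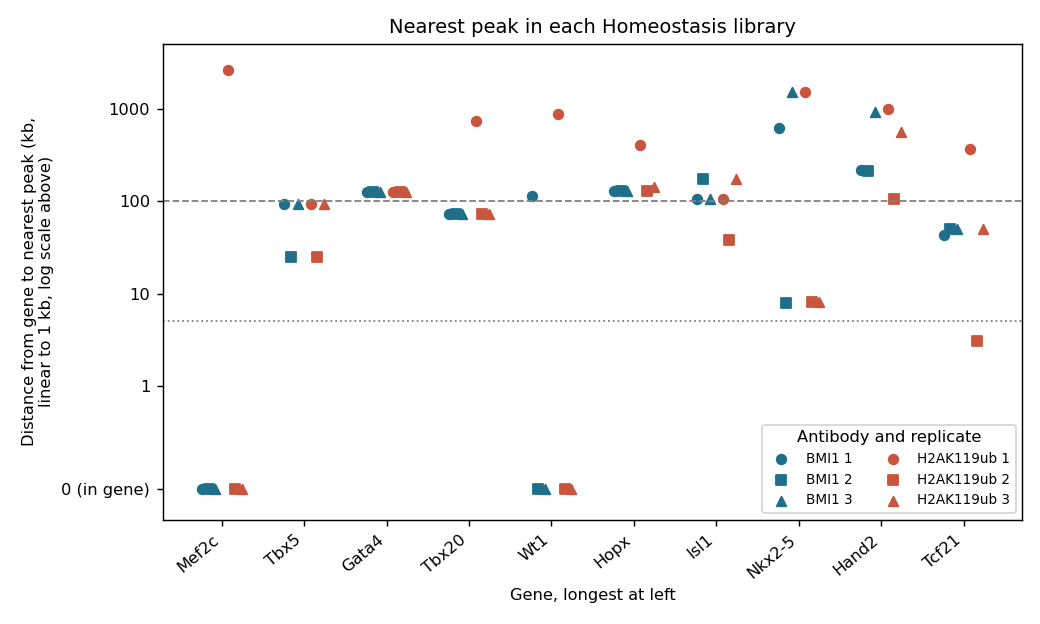
Distance in kb from each of the 10 genes to the nearest peak in each Homeostasis library (colour, antibody; symbol, replicate), linear up to 1 kb and logarithmic above, with lines at 5 kb (dotted) and 100 kb (dashed). Mef2c and Wt1 have points at 0, all 6 points of Tbx5 lie below 100 kb and all 6 of Gata4 lie at 124 kb.

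The number of genes with a peak was then set against the background. A BMI1 peak in 2 or more of 3 Homeostasis libraries was assigned to 2 of the 10 genes, Mef2c and Wt1, against 7.34% of protein-coding genes. For H2AK119ub it was the same 2 genes, against 9.63%. In all 3 libraries, BMI1 peaks were assigned to Mef2c alone (4.45% of protein-coding genes) and H2AK119ub peaks to none (2.92%). Peaks in 4 or more of the 6 Homeostasis lists were assigned to 2 of 10, against 6.7%. With 10 genes, each adds 10 percentage points, so these shares differ from the background by less than 2 genes. Each count of 2 rested on single libraries: for BMI1 it was 1 without replicate 2 or without replicate 3, and for H2AK119ub it was 0 without replicate 2 or without replicate 3 (2 or more of the libraries left). It was also 1 for H2AK119ub when only peaks found again in another library of the group were counted, since the H2AK119ub peaks in Wt1 do not overlap each other.

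Gene length bears on these counts directly. The 10 genes have a median length of 37.6 kb, against 17.2 kb for all protein-coding genes, and longer genes hold more peaks. Of 759 other protein-coding genes within 1.25-fold of the length of Mef2c, 22.9% had a BMI1 peak and 31.9% an H2AK119ub peak in 2 or more libraries. Of 2070 genes as long as Wt1 by the same measure, 7.0% and 9.57% did. Genes of the length of Tbx5 did so in 12.3% and 17.5% and those of the length of Gata4 in 9.51% and 14.4%. Summed over the 10 genes, these shares come to 0.748 genes for BMI1 and 1.05 for H2AK119ub, beside the 2 observed with either antibody. In the windows of the 10 genes the 6 Homeostasis lists had a mean of 3.75 peaks per Mb, and in those of all protein-coding genes 2.15. Of the 13 peaks behind the first value, 8 lay in the window of Mef2c, 4 in that of Wt1 and 1 in that of Tcf21. The first value thus rests mostly on Mef2c. By library, 5 of the 13 came from H2AK119ub replicate 2.

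**Figure D4:**
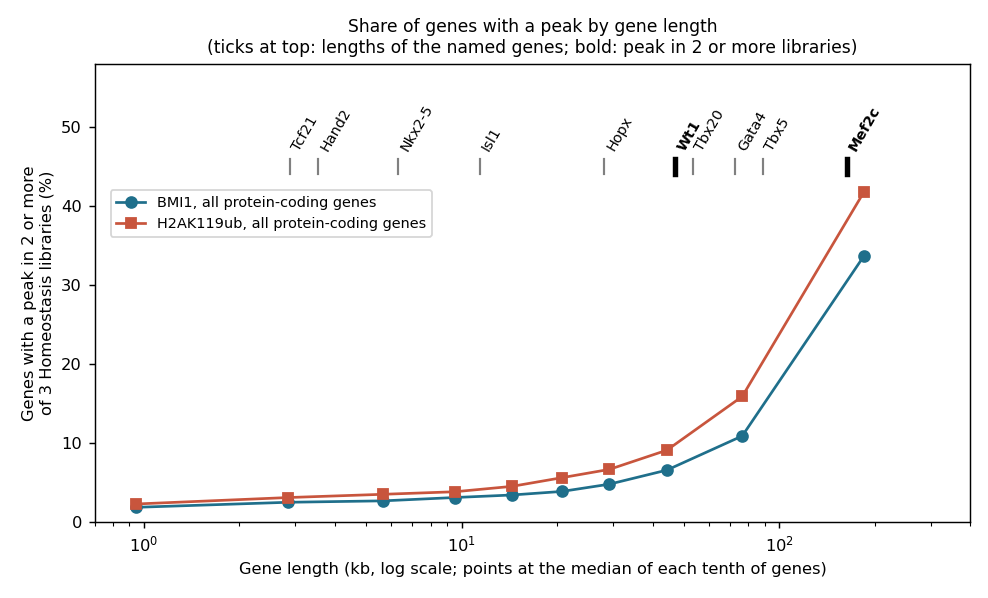
Share of protein-coding genes with a peak in 2 or more of 3 Homeostasis libraries (vertical axis, percent) by gene length (kb, log scale; each point is 1 of 10 length classes), for BMI1 and H2AK119ub, with the lengths of the 10 genes as ticks. The share rises with length, to 33.7% and 41.8% in the longest class; Mef2c (163 kb) is closest to that class and Wt1 (47.1 kb) to the class with a median of 44.3 kb.

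Within 100 kb the picture was similar. Of the 10 genes, 7 had a peak there in at least 1 Homeostasis list, against 68.8% of protein-coding genes. In 2 or more of 3 libraries it was 5 of 10 for BMI1 (32.7% of protein-coding genes) and 6 of 10 for H2AK119ub (42.0%). The BMI1 genes were Tbx5, Tbx20, Mef2c, Wt1 and Tcf21, and Nkx2-5 joined them for H2AK119ub. The H2AK119ub count fell to 1, Tbx5, without replicate 2 or without replicate 3, because replicate 1 had a peak within 100 kb of Tbx5 only. The BMI1 count was 3 with a limit of 50 kb. In 5 of the 6 Homeostasis libraries the median distance to the nearest peak was shorter for the 10 genes than for all protein-coding genes. It was 110 against 200, 60.8 against 129 and 98.7 against 234 kb in BMI1 replicates 1, 2 and 3. For H2AK119ub it was 31.2 against 64.7 kb in replicate 2 and 82.1 against 127 kb in replicate 3. In H2AK119ub replicate 1 it was longer, at 567 against 509 kb. Libraries share many of the sites that set these distances, so they are not separate observations. Gene length was not matched in this comparison.

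Merging overlapping peaks gave 21 sites within 100 kb of the genes, 6 in the windows and 15 beyond them. Of these, 9 (42.9%) were in 3 or more of the 6 Homeostasis lists, against 34.2% of the 17229 Homeostasis sites of the genome, and a site in 3 or more lists lay within 100 kb of 6 of the 10 genes and of 36.2% of protein-coding genes. Of the 11 sites in 2 or more lists, 10 held both antibodies, and the exception was the H2AK119ub site inside Mef2c 80.6 kb beyond its nearest start. Over the genome 86.3% of such sites held both. Sites of a single list numbered 10, and 8 of them came from H2AK119ub replicate 2, the longest list, which supplied 62.4% of all single-list Homeostasis sites. The sites overlapped a long non-coding RNA gene in 5 cases, no annotated gene in 11 and a tRNA or rRNA gene in 0.

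Damage and homeostasis were then compared. No peak was assigned to any of the 10 genes in the 6 Damage libraries, against 0.283% of protein-coding genes with a peak in at least 1 of them, and none lay within 100 kb, against 1.13%. The nearest was a peak of Damage H2AK119ub replicate 2 at 369 kb from Tcf21, overlapping a peak of Homeostasis H2AK119ub replicate 1. For the other 9 genes the nearest Damage peak was 2.03 Mb (Isl1) to 27.8 Mb (Tbx20) away. The 13 Homeostasis peaks in the windows are 0.0328% of all Homeostasis peaks, and the same share of the 217 Damage peaks would be 0.0712 peaks. A count of 0 of 217 allows a share of up to 1.38% (3.23% for BMI1 and 2.42% for H2AK119ub, counting error only). The limit counts the 217 peaks as independent. At this number of peaks a fall in the share at these genes was not detectable, nor was a rise that stayed below the limit.

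Gene by gene, the presence of a peak was compared between treatments in the libraries of both antibodies by an exact two-sided permutation test. Treatment was permuted within antibody (400 arrangements), with Benjamini-Hochberg adjustment over the 4247 protein-coding genes with a peak in any list. This counts the libraries of both antibodies as independent. The labels do not say whether they shared chromatin. If they did, a permutation of 3 against 3 libraries could not go below p = 0.1. The test called 552 genes (13.0%), all with fewer lists after damage. With so few Damage peaks, nearly every gene entered the test through its Homeostasis peaks, and 0 genes were called when all 21887 protein-coding genes were tested (1007 at an unadjusted p under 0.05). Of the 10 genes, 3 could be tested and 0 were called, while 7 had no peak to test. Mef2c had a peak in 5 of 6 Homeostasis lists and 0 of 6 Damage lists (difference in the share of lists -0.833), with an exact permutation p = 0.02 and an adjusted p = 0.0843. Its groups overlapped through H2AK119ub replicate 1 alone. Wt1 had a peak in 4 of 6 and 0 of 6 lists (exact permutation p = 0.08, adjusted p = 0.233), and Tcf21 in 1 of 6 and 0 of 6 (exact permutation p = 1.0). At an unadjusted p under 0.05, the test gave 1 of these 3 genes and 23.7% of all genes tested as lower. The adjusted p of Mef2c moved to both sides of the threshold with the genes and libraries used. It was 0.435 (exact permutation) with all protein-coding genes tested and 0.264 with the replicate number as a block. It was 0.0228 (exact permutation) without Homeostasis H2AK119ub replicate 1, the one Homeostasis list with no peak there, 0.0402 with genes required in 3 or more lists and 0.0465 with peaks required in another library of the group. Mef2c meets both of these requirements through its Homeostasis lists alone. Leaving out H2AK119ub replicate 1 removes the only Homeostasis list that overlaps the Damage lists, so the groups then separate by construction. None of the adjusted values below 0.05 therefore adds support. These differences run alongside the fall in the length of the whole lists, and their part in the result was not tested beyond the share given above.

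Other regulators of the heart and mesoderm were looked up for comparison, 46 genes that include further GATA, T-box, HAND, MEF2, IRX, HEY and forkhead factors. All 46 matched the annotation, with a median length of 10.4 kb. A peak in 2 or more of 3 Homeostasis libraries was assigned to 1 of them for BMI1 (2.17%, against 7.34% of protein-coding genes) and 2 for H2AK119ub (4.35%, against 9.63%). No Damage list had a peak in the window of any of the 46, against 0.283% of protein-coding genes with one in any Damage list. The median length of the 46 is below the 17.2 kb of all protein-coding genes, but they run from 1.35 kb (Mesp1) to 450.0 kb (Zfpm2). In the length class with a median of 9.51 kb, the shares of protein-coding genes were 3.11% for BMI1 and 3.84% for H2AK119ub. In the longest class they were 33.7% and 41.8%. The class at the median does not stand for the longer of the 46. Shares matched to the length of each gene were not computed for them, so the part of length was not tested. Zfpm2, which encodes the GATA4 partner FOG2 and is 450.0 kb long (chromosome 15, 40655042 to 41104592), had 0, 1 and 2 BMI1 peaks and 0, 1 and 1 H2AK119ub peaks in the order of the replicates. Nfatc1, a factor of the endocardium and the valves (107 kb), had no BMI1 peak and 0, 3 and 2 H2AK119ub peaks. Eomes and Tead1 had 1 peak in replicate 2 of each antibody, and Irx3 had 1 in H2AK119ub replicate 3. The remaining 41 had no peak in their windows. None of the 5 that could be tested passed the comparison of treatments, which called 13.0% of all genes tested (exact permutation test, adjusted over all genes; the smallest adjusted p was that of Zfpm2, 0.233).

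Other genes had the same counts as Mef2c or Wt1. Of 4 protein-coding genes with the count of Mef2c in each of the 12 libraries (a summed difference of 0), Kif5c, Pebp4 and Pld5 were the closest in length, and 373 other genes had a peak in the same 5 lists whatever its count. For Wt1, 114 genes had identical counts, of which Gtf2a1l, Tmem67 and Triml1 were the closest in length, and 166 other genes had a peak in the same 4 lists.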

How the data were processed

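The authors deposited 1 peak list for each of 12 ChIP libraries. Bowtie2, HOMER 4.8 and the build GRCm38 are named, per the submitters' processing notes. Peak-calling settings, and how the Input libraries entered them, were not given in the sources used here. Each list holds positions and a deposited score that is 1 for every peak, so no peak could be ranked or filtered by it. Depth is unknown and no read counts were used. Of 39832 peaks, 143 lay outside the assembled chromosomes and were left out of gene counts.

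Peaks were assigned to RefSeq genes (GRCm38.p6) by an overlap of 1 bp or more with the gene body extended by 5 kb. The annotation gives gene boundaries without exons; start sites came from the RefSeq promoter table, whose strand orientation was used. Sites are merged overlapping peaks of all lists. Groups follow the treatment and antibody in the labels. Treatments were compared per gene by the exact permutation test described with the result, and called at an adjusted p below 0.05. The test was tried on simulated data in which all libraries kept Homeostasis peak numbers, apart from a set of changed genes. A fall in the length of whole lists was not simulated. The 10 genes and the comparison lists were chosen with earlier results of these data known, so lists get no p-value. All 10 genes are named, with other regulators that had a peak in at least 2 of 3 Homeostasis libraries, the genes nearest to a site, and the genes whose counts are closest to those of a member in 3 or more lists. Eomes, Tead1 and Irx3 were named after their values were seen. Alternatives were the window, peak centres, replicated peaks, other scales, other gene filters, the overlap rule, a block for the replicate number, and each library left out in turn. Python 3.11.15, numpy 2.4.6, pandas 2.3.3 and matplotlib 3.10.9 were used.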

Additional observations from a re-analysis of the deposited data

How the results depend on the processing

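The all-gene test depended on which genes were tested. In place of 552 genes it called 1007 with genes required in 3 or more lists, 1060 over all annotated genes, 912 with peaks required in another library of the group, and 0 with no filter (1007 at an unadjusted exact p under 0.05). With the replicate block it called 0, because the smallest p its arrangements allow is 0.0312 (552 genes at an unadjusted p under 0.05). Whether the numbers pair the treatments could not be decided. Same-numbered Damage and Homeostasis libraries had correlations of deviations of -0.0395 to 0.0233, and 2 of 12 libraries correlated best with their own number. Each Damage list had a peak at only 5 to 21 protein-coding genes, too few for these correlations to reveal a pairing. Between the antibodies at homeostasis the correlations were 0.163, 0.191 and -0.0784 for replicates 1, 2 and 3, not all over 0.1, and the antibody tests were run without pairing. Mef2c had an adjusted p of 0.264 with the block and 0.435 with no filter, and over all alternatives Wt1 and Tcf21 did not pass. Leaving out each library gave 552 to 926 called genes, the highest without Homeostasis H2AK119ub replicate 1.

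For the 10 genes, requiring 3 of 3 libraries gave 1 gene for BMI1 and 0 for H2AK119ub in place of 2, and requiring a peak in another library gave 1 for H2AK119ub. Leaving out each library gave 1 to 2 genes for BMI1 and 0 to 2 for H2AK119ub, and within 100 kb 4 to 5 and 1 to 6. Within 100 kb for BMI1, a limit of 50 kb gave 3 genes, as did 100 kb from the start sites of the 7 genes with a listed start. Tbx5 and Wt1, which are in the main count, have no listed start, so the count from start sites could not exceed 3. No gene gained a Damage peak under any alternative run. Few peaks after damage, and unknown depth, limit every comparison of treatments.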

Other observations

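Among the 16 cell type markers looked up, Pdgfra, which encodes the platelet-derived growth factor receptor of fibroblasts and mesenchymal cells, had a peak in all 6 Homeostasis lists (1, 1 and 1 for BMI1 and 1, 2 and 1 for H2AK119ub) and in 0 Damage lists (exact permutation p = 0.005, the smallest possible, adjusted p = 0.0385 over all genes tested). It entered the test through its Homeostasis peaks, and the call is lost with no filter on genes or with the replicate block, where 0 of all genes were called. Its p also counts the libraries of both antibodies as independent. The same smallest p was reached by 552 of the 4247 genes tested (13.0%), and by 1 of the 5 markers tested. Pecam1, an adhesion molecule of endothelial cells, had 1 peak in each of 4 Homeostasis lists and 0 Damage lists, with an exact permutation p = 0.08 and an adjusted p = 0.233. Kdr and Cdh5 had peaks in H2AK119ub replicate 2 alone and Myh6 in BMI1 replicate 1 alone. The other 11 markers, among them Thy1, Eng and Rgs5, had no peak in any list.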
